A study of Mus musculus with 8 samples.

Results

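Lysosomal hydrolases and lysosomal membrane proteins were followed as a set of 41 genes in mouse embryonic fibroblasts undergoing direct cardiac reprogramming. The genes were listed by symbol, by a rule that uses no measured value but with earlier results of these data known, and each matched 1 row of the authors' 3 comparison tables, 41 of 50600 rows in all. Every one of the 41 had an adjusted p in each table, so none was lost to the low-count filter, which left 14830 genes tested in the DMSO and I-CBP112 tables. The set holds 8 cysteine cathepsins and legumain, 3 aspartic and serine proteases, 11 glycosidases, 4 sulfatases, 4 lipid and DNA hydrolases, 4 activators and other soluble proteins and 7 membrane proteins.

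The lysosome is the acidic compartment in which cells break down protein, glycan, lipid and nucleic acid that arrives by endocytosis or autophagy. Its hydrolases are made in the endoplasmic reticulum, most are tagged with mannose 6-phosphate in the Golgi, and a vacuolar proton pump keeps the lumen at the low pH that they need. Many lysosomal genes carry an E-box-like element near their start site that the transcription factor TFEB and its relatives can bind, and loss of single enzymes causes storage diseases in humans and mice.

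All cells were C57BL/6 embryonic fibroblasts that carried GHMT retroviruses, encoding the cardiac factors Gata4, Hand2, Mef2c and Tbx5, and were kept in StemPro-34 serum-free medium. They were treated for 7 days with 5 µM I-CBP112, a compound that occupies the bromodomains of CBP and p300, acetyltransferases that act as transcriptional coactivators, with 5 µM C646, an inhibitor of the catalytic site of p300 and CBP, with 1% DMSO or with 0.1% ethanol. Each treatment had 2 libraries, 8 in all, and the control groups carried the same retroviruses. The sources used here do not name the solvent of either inhibitor, so an effect of the inhibitor and an effect of its solvent cannot be told apart. The sample titles number the 2 libraries of every treatment B2 and B3, without saying whether equal numbers pair libraries across treatments. Nothing in the labels says whether the libraries of a treatment came from separate cultures or embryos. The p-values rest on a spread estimated per gene over all 8 libraries, which may therefore be technical.

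Levels are mean normalised counts of a group, rebuilt from the authors' mean over all 8 libraries and their 3 fold changes, and values of single libraries are not in the tables used here. Precision is therefore carried by the authors' standard error (SE) of each fold change, given after ± in what follows, with a median of 0.13 and a range of 0.10 to 0.25 on the log2 scale over the 41 genes. The normalised counts summed to 37.52 × 1e6 in I-CBP112, 37.83 × 1e6 in C646, 38.57 × 1e6 in DMSO and 38.07 × 1e6 in ethanol, and the 41 genes made up 0.999% of the total. In I-CBP112 and in DMSO, 12 of 12 and 9 of 12 listed cardiomyocyte genes were called higher than in ethanol, and 8 of 12 and 10 of 12 listed fibroblast genes were called lower. Of all tested genes, 4.65% were called higher and 5.25% lower with I-CBP112, and 8.07% higher and 7.9% lower with DMSO. The fibroblast genes still summed to 660068 normalised counts in I-CBP112, 1066980 in C646, 686582 in DMSO and 1083540 in ethanol. These are bulk samples, in which fewer cells of a type and less RNA per cell cannot be told apart.

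The 41 genes spanned a wide range of levels. For the per-kilobase scale, the mean normalised count over all libraries was divided by the length of the longest principal coding transcript. Ctsd, the main aspartic protease of the lysosome, stood highest at 31846 per kb. Psap, the precursor of the saposins that present sphingolipids to their hydrolases, followed at 16674 per kb, and Lamp1, a heavily glycosylated protein of the lysosomal membrane, at 14627 per kb. These 3 stood well above the next gene, Lamp2, at 5831 per kb. The lowest levels were those of Idua, which removes iduronic acid from heparan and dermatan sulfate, at 157 per kb, of Gla, the alpha-galactosidase, at 145 per kb, and of Cln3, a membrane protein mutated in juvenile neuronal ceroid lipofuscinosis, at 84.0 per kb. This order depends on the transcript taken for the length.

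**Figure D1:**
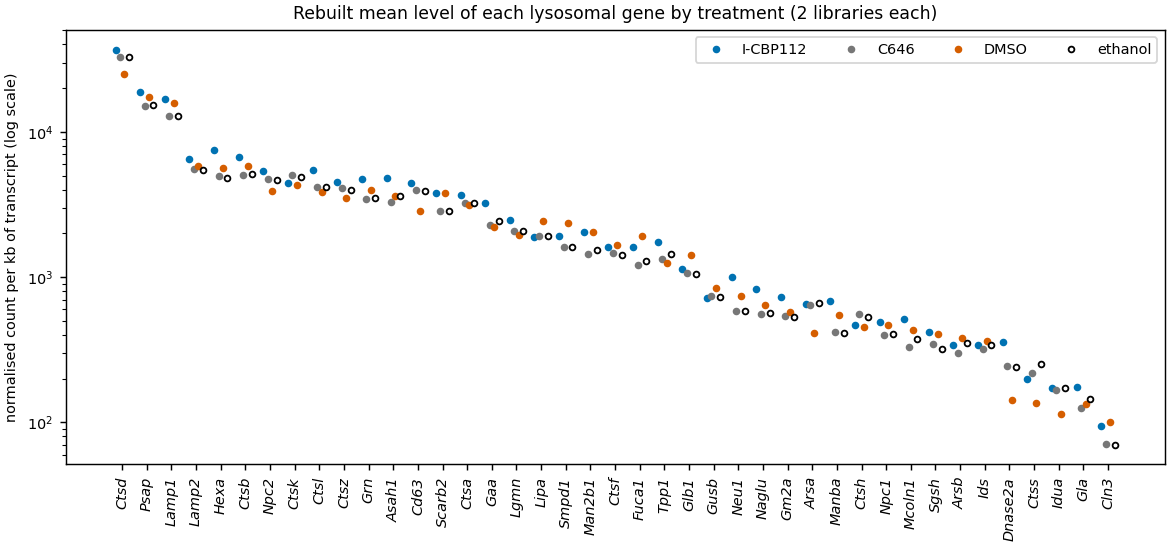
Rebuilt group means of the 41 genes in normalised counts per kb of the longest principal coding transcript, on a log axis. Groups are I-CBP112, C646, DMSO and ethanol, with genes ordered by their mean over all libraries. The points of a gene lie close together relative to the range between genes, from Ctsd at 31846 per kb to Cln3 at 84.0 per kb as means over all libraries; group means carry no error bars because no values of single libraries were at hand.

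Treatment with I-CBP112 went with higher transcript levels of many of these genes. In the authors' deposited table, 14 of the 41 rose against ethanol at an adjusted p below 0.05 and 0 fell, and at an unadjusted p below 0.05 the counts were 22 higher and 0 lower. Over all 14830 tested genes the authors called 9.9%, of which 4.65% were higher and 5.25% lower. The median log2 fold change of the 41 genes was 0.27, against 0.01 for all tested genes, with 34 positive and 7 negative values between -0.32 and 0.79. Called changes lay between 1.31-fold and 1.73-fold. When the Wald statistics were read against a t distribution with 4 degrees of freedom, 0 of the 41 genes passed in this or any other comparison. Of all 14830 tested genes, 0 passed that reading with I-CBP112 against ethanol and 1 with DMSO. With almost no gene passing, that reading cannot tell the calls on the 41 genes from any others. With adjustment over all genes with a p, 9 of the 14 passed, without Ctsl, Dnase2a, Gm2a, Grn and Scarb2.

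Glycosidases, which strip sugars from glycoproteins, glycolipids and glycogen, held the largest rises with I-CBP112, with 6 of 11 called higher. Neu1, the sialidase that removes terminal sialic acid (chromosome 17, 34931253 to 34935953, plus strand, GRCm38), had 2485 normalised counts in I-CBP112, 1435 in C646, 1840 in DMSO and 1436 in ethanol. Manba, the beta-mannosidase that cuts the last mannose linkage of N-glycans (chromosome 3, 135485611 to 135571404, plus strand), had 2498, 1544, 2000 and 1517 normalised counts in the same groups. For both genes the I-CBP112 mean stood highest, the DMSO mean lay between, and the C646 and ethanol means lay close to each other. The authors' deposited table gave log2 fold changes over ethanol of 0.79 ± 0.13 for Neu1 (adjusted p = 6.45e-08) and 0.72 ± 0.13 for Manba (adjusted p = 3.8e-06), 1.73-fold and 1.65-fold.

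Hexa, the alpha subunit of the beta-hexosaminidase that degrades GM2 ganglioside, had 15075 normalised counts in I-CBP112, 9900 in C646, 11219 in DMSO and 9599 in ethanol. Its I-CBP112 mean was 1.57 times that of ethanol, or 0.65 ± 0.11 on the log2 scale (authors' deposited table, adjusted p = 1.78e-07). Naglu, which removes N-acetylglucosamine from heparan sulfate, had 2135 normalised counts in I-CBP112, 1420 in C646, 1640 in DMSO and 1455 in ethanol. Gaa, the acid alpha-glucosidase that degrades glycogen, had 11809 normalised counts in I-CBP112, 8321 in C646, 8084 in DMSO and 8777 in ethanol. Against ethanol, Naglu rose by 0.55 ± 0.13 (adjusted p = 0.000858) and Gaa by 0.43 ± 0.12 (adjusted p = 0.00676) on the log2 scale, per the authors' deposited table. Man2b1, the alpha-mannosidase of the lysosome, rose by 0.40 ± 0.12 (adjusted p = 0.0149) in that authors' deposited table. Gla, Fuca1, Glb1, Gusb and Idua did not pass the test with I-CBP112.

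Among the cysteine proteases, 2 of 8 rose with I-CBP112. Ctsl, an endopeptidase, had 33954 normalised counts in I-CBP112, 25941 in C646, 23760 in DMSO and 25583 in ethanol, and Ctsb, which also cuts dipeptides from C termini, had 31714, 23857, 27533 and 24180. In both genes the I-CBP112 mean was the highest of the 4. Their log2 fold changes over ethanol in the authors' deposited table were 0.41 ± 0.13 for Ctsl (adjusted p = 0.023) and 0.39 ± 0.11 for Ctsb (adjusted p = 0.00412). The lowest value in this comparison belonged to Ctss, the cathepsin that trims the invariant chain in antigen-presenting cells, at -0.32 ± 0.23 with an adjusted p of 0.495 in the authors' deposited table. Ctsh, an aminopeptidase, at -0.18 ± 0.25, and Ctsk, the collagen-degrading cathepsin of osteoclasts, at -0.14 ± 0.11, did not pass the test either (authors' deposited table). Of the 3 aspartic and serine proteases, 0 were called with I-CBP112, and 1, Tpp1, had an unadjusted p below 0.05, at 0.27 ± 0.11 in the authors' deposited table (adjusted p = 0.12).

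Of the 4 lipid and DNA hydrolases, Asah1, the acid ceramidase, rose by 0.41 ± 0.11 on the log2 scale with I-CBP112 (adjusted p = 0.00298) in the authors' deposited table. Dnase2a, the acid endonuclease that digests DNA taken up or delivered by autophagy (chromosome 8, 84908560 to 84922915, plus strand), had 609 normalised counts in I-CBP112, 419 in C646, 245 in DMSO and 416 in ethanol. Its 1.47-fold rise over ethanol lay just inside the threshold (authors' deposited table, adjusted p = 0.0482) and was outside it when fold changes were centred on the median of all tested genes. Of the activators and other soluble proteins, Gm2a, which lifts GM2 ganglioside to the hexosaminidase, rose by 0.46 ± 0.15 (adjusted p = 0.0242), and Grn, the granulin precursor, by 0.42 ± 0.14 (adjusted p = 0.0225), on the log2 scale of the authors' deposited table. Psap stood just outside the threshold at 0.30 ± 0.11 (authors' deposited table, adjusted p = 0.063).

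All 7 membrane proteins had positive fold changes with I-CBP112, and 2 of the 7 passed the test. Lamp1 (chromosome 8, 13159161 to 13175338, plus strand) had 37832 normalised counts in I-CBP112, 28882 in C646, 35058 in DMSO and 28646 in ethanol. Scarb2, the membrane protein that carries glucocerebrosidase to the lysosome, had 17771, 13429, 17856 and 13437 normalised counts in the same groups. For both genes the I-CBP112 and DMSO means lay above the C646 and ethanol means. The authors' deposited table gave 0.40 ± 0.10 for Lamp1 (adjusted p = 0.00227) and 0.40 ± 0.13 for Scarb2 (adjusted p = 0.032) with I-CBP112. Mcoln1, the calcium channel of the lysosomal membrane, had 1058 normalised counts in I-CBP112, 678 in C646, 897 in DMSO and 777 in ethanol, and its 0.45 ± 0.17 over ethanol missed the threshold (authors' deposited table, adjusted p = 0.0874). The 4 sulfatases, which remove sulfate from glycosaminoglycans and sulfatide, gave 0 calls with I-CBP112, 1 of them, Sgsh, being higher at an unadjusted p below 0.05 (0.39 ± 0.15, adjusted p = 0.0945, authors' deposited table).

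**Figure D2:**
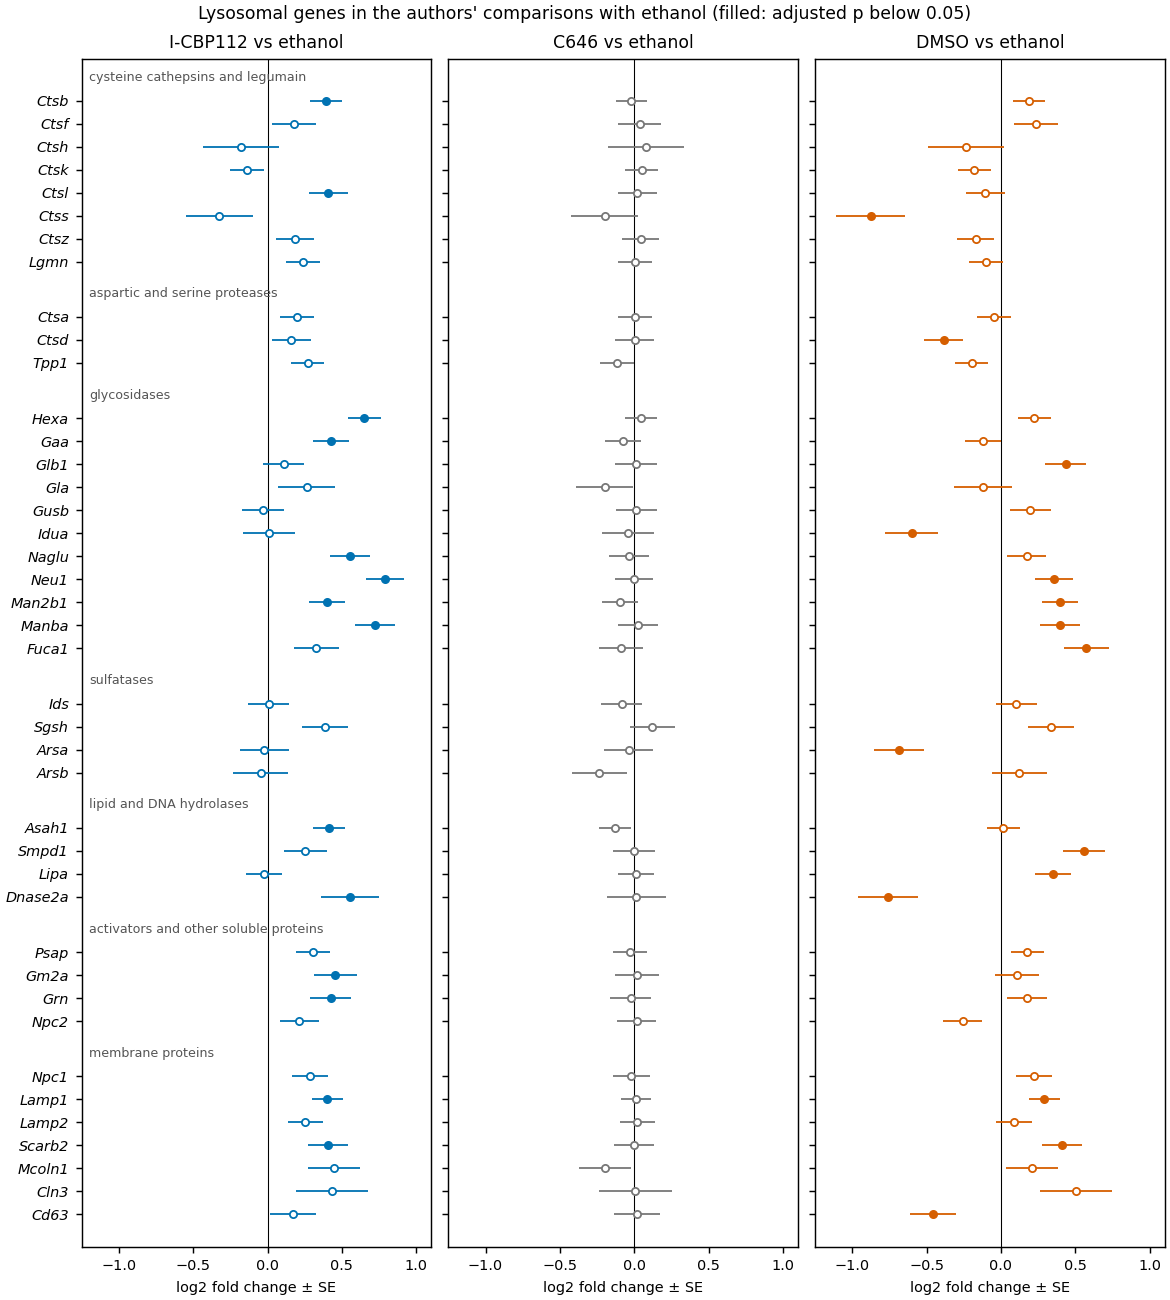
Log2 fold change against ethanol of the 41 genes, grouped by role, in the authors' tables for I-CBP112, C646 and DMSO; bars are the authors' SE and filled points have an adjusted p below 0.05. With I-CBP112 the 14 filled points all lie right of 0, with C646 no point is filled, and with DMSO 9 filled points lie right of 0 and 6 left of it.

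With 1% DMSO the same comparison gave calls in both directions. The authors' deposited table called 9 of the 41 genes higher and 6 lower than in ethanol, against 16% of all tested genes, 8.07% higher and 7.9% lower. The median log2 fold change was 0.12, against 0.03 for all tested genes, and single values ran from -0.88 to 0.57. Glycosidases held 5 of the 9 rises and membrane proteins and lipid hydrolases 2 each, while the 6 lower genes were spread over the cysteine proteases, the aspartic protease Ctsd, glycosidases, sulfatases, the DNA hydrolase and the membrane proteins.

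The highest fold changes with DMSO were those of Fuca1, the alpha-fucosidase, and Smpd1, the acid sphingomyelinase. Fuca1 had 4833 normalised counts in DMSO and 3245 in ethanol, and rose by 0.57 ± 0.15 on the log2 scale (authors' deposited table, adjusted p = 0.00157). Smpd1 had 5696 normalised counts in DMSO and 3863 in ethanol, 0.56 ± 0.14 in the authors' deposited table (adjusted p = 0.00115). Glb1, the beta-galactosidase, rose by 0.43 ± 0.14 (adjusted p = 0.0157) and Lipa, the acid lipase that frees cholesterol and fatty acids from lipoproteins, by 0.35 ± 0.12 (adjusted p = 0.0274) on the log2 scale of the authors' deposited table. Cln3, which lay between Smpd1 and Glb1 at 0.51 ± 0.24, did not pass the test (authors' deposited table, adjusted p = 0.153). None of the 4 called genes was called with I-CBP112, where the authors' deposited table gave 0.33 ± 0.15 for Fuca1, 0.25 ± 0.14 for Smpd1, 0.11 for Glb1 and -0.03 ± 0.12 for Lipa.

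The other 5 genes called higher with DMSO were Scarb2 at 0.41 ± 0.13 (adjusted p = 0.0194), Man2b1 at 0.40 ± 0.12 (adjusted p = 0.0111), Manba at 0.40 ± 0.13 (adjusted p = 0.0227), Neu1 at 0.36 ± 0.13 (adjusted p = 0.0384) and Lamp1 at 0.29 ± 0.10 (adjusted p = 0.035), as the authors' deposited table gives them. The calls of Neu1, Lamp1 and Lipa were lost when the fold changes were centred on the median of all tested genes. With adjustment over all genes with a p, 5 of the 9 higher and 4 of the 6 lower genes passed, without Neu1, Manba, Lipa, Lamp1, Ctsd and Cd63. Both tables share the ethanol libraries, so the values of a gene in them are not independent of each other.

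The 6 genes that fell with DMSO ran from Ctsd, the most abundant of the 41, to Dnase2a, Ctss and Idua, which were among the 5 least abundant per kb. Ctss (chromosome 3, 95526786 to 95556403, plus strand) had 271 normalised counts in I-CBP112, 296 in C646, 185 in DMSO and 340 in ethanol. It fell by 0.88 ± 0.23 on the log2 scale, 1.84 times lower (authors' deposited table, adjusted p = 0.00186). Dnase2a had 245 normalised counts in DMSO and 416 in ethanol and fell by 0.76 ± 0.20 (authors' deposited table, adjusted p = 0.00203). For both genes the DMSO mean was the lowest of the 4 groups.

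Arsa, the arylsulfatase that degrades sulfatide (chromosome 15, 89472476 to 89477425, minus strand), had 1431 normalised counts in DMSO and 2300 in ethanol and fell by 0.68 ± 0.17 (authors' deposited table, adjusted p = 0.000644). Idua had 402 normalised counts in DMSO and 610 in ethanol and fell by 0.60 ± 0.18 (authors' deposited table, adjusted p = 0.0068). Cd63, a tetraspanin of late endosomes and lysosomes, had 3163 normalised counts in DMSO and 4346 in ethanol and fell by 0.46 ± 0.15 (authors' deposited table, adjusted p = 0.0225). Ctsd (chromosome 7, 142375911 to 142388038, minus strand) had 53463 normalised counts in DMSO and 69743 in ethanol, and fell by 0.38 ± 0.13 (authors' deposited table, adjusted p = 0.0259). In I-CBP112 these 4 genes had 2264, 614, 4894 and 77921 normalised counts, and none of them passed the test against ethanol.

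With C646 no change was detectable in these genes. Of the 41 genes, 0 had an adjusted p below 0.05 in the authors' deposited table and 0 an unadjusted p below 0.05, and among all 34250 genes with an adjusted p the authors called 0.00584%, with 0.00292% higher and 0.00292% lower. At an unadjusted p below 0.05 the table held 111 genes, 0.748% of the 14830 tested in the other 2 tables. That is under the share of 0.05 that would fall there if no gene changed and the SEs were exact. The SEs may therefore overstate the spread, which was not tested. Their median over the 41 genes was 0.13 with C646, I-CBP112 and DMSO alike, so this doubt is not particular to C646. The median over the 41 genes was 0.00, equal to that of all tested genes at 2 decimals, with 21 positive values. The highest values were those of Sgsh at 0.12 ± 0.15, Ctsh at 0.08 ± 0.25 and Ctsk at 0.05 ± 0.11, and the lowest those of Arsb at -0.24 ± 0.19, Gla at -0.20 ± 0.19 and Ctss at -0.20 ± 0.23, as the authors' deposited table gives them. The 95% intervals of all 41 genes lay between -0.64, for Ctss, and 0.57, for Ctsh. Changes of up to 1.56-fold lower for Ctss or 1.49-fold higher for Ctsh were thus not outside the precision of these libraries. The narrowest interval, that of Lamp1, ran from -0.19 to 0.22.

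The treatments were then compared with each other. For each pair the difference of the authors' log2 fold changes was divided by an SE rebuilt from their 3 SEs, and the two-sided normal p received a Benjamini-Hochberg adjustment across the 14830 tested genes. I-CBP112 against DMSO gave 13 of the 41 genes higher and 1 lower, against 6.97% of all tested genes, 4.31% higher and 2.66% lower, with a median difference of 0.25 for the 41 and -0.03 for all tested genes. Dnase2a stood out with a difference of 1.31 ± 0.20, or 2.49-fold (adjusted p = 9.76e-09). The genes Arsa at 0.66 ± 0.17, Cd63 at 0.63 ± 0.15, Idua at 0.61 ± 0.18 and Ctsd at 0.54 ± 0.13, all lower with DMSO than with ethanol, were also higher with I-CBP112 than with DMSO (adjusted p from 0.00129 to 0.0125). Ctss, the other gene lower with DMSO than with ethanol, did not pass the test here, at 0.55 ± 0.23 (adjusted p = 0.15).

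Higher in I-CBP112 than in DMSO were further Gaa by 0.55 ± 0.12 (adjusted p = 0.000336), Ctsl by 0.52 ± 0.13, Npc2 by 0.47 ± 0.13, Tpp1 by 0.47 ± 0.11, Neu1 by 0.43 ± 0.13, Hexa by 0.43 ± 0.11, Asah1 by 0.40 ± 0.11 and Lgmn by 0.34 ± 0.11. Npc2 hands cholesterol to Npc1 for export, Tpp1 is a tripeptidyl peptidase, and Lgmn, legumain, cuts after asparagine and processes other cathepsins. In normalised counts, Npc2 had 17873 in I-CBP112 and 12911 in DMSO, Tpp1 6185 and 4479, and Lgmn 4901 and 3873. Lipa was lower in I-CBP112 than in DMSO, by 0.37 ± 0.12 on the log2 scale (adjusted p = 0.0315), with 5565 and 7214 normalised counts, a call that was lost on centring. The next lowest differences, -0.33 ± 0.14 for Glb1 and -0.31 ± 0.14 for Smpd1, did not pass the test (adjusted p = 0.159 and 0.217).

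Man2b1 and Scarb2, called higher than in ethanol with both treatments, differed little between I-CBP112 and DMSO. The difference was 0.00 ± 0.12 for Man2b1, with a 95% interval from -0.23 to 0.24, and -0.01 ± 0.13 for Scarb2, with an interval from -0.27 to 0.26. Lamp1 differed by 0.11, with an interval from -0.09 to 0.31. Manba, at 0.32 ± 0.13 with an interval from 0.06 to 0.58, did not pass the test (adjusted p = 0.142), though its interval lay above 0.

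I-CBP112 and C646 were given at the same dose of 5 µM for the same 7 days. I-CBP112 had 16 of the 41 genes higher than C646 and 0 lower, and at an unadjusted p below 0.05 the counts were 21 and 0, against 9.8% of all tested genes called, 4.69% higher and 5.11% lower. The median difference was 0.31, against 0.01 for all tested genes. Neu1 differed by 0.79 ± 0.13 (adjusted p = 6.08e-08), Manba by 0.69 ± 0.13 (adjusted p = 1.01e-05), Mcoln1 by 0.64 ± 0.17 (adjusted p = 0.00423) and Hexa by 0.61 ± 0.11 (adjusted p = 1.71e-06). Naglu followed at 0.59 ± 0.13, Asah1 at 0.54 ± 0.11, Gaa at 0.51 ± 0.12 and Man2b1 at 0.49 ± 0.12, and the other 8, Grn, Gm2a, Ctsb, Scarb2, Lamp1, Ctsl, Tpp1 and Psap, lay between 0.33 and 0.45. The lowest differences, those of Ctsh at -0.26 ± 0.25, Ctsk at -0.19 ± 0.11 and Ctss at -0.13 ± 0.23, did not pass the test.

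C646 against DMSO gave 6 of the 41 genes higher and 9 lower, against 15.8% of all tested genes, 7.98% higher and 7.86% lower. After centring on the median of all tested genes the split was 6 higher and 5 lower. Dnase2a at 0.77 ± 0.20, Ctss at 0.68 ± 0.23, Arsa at 0.65 ± 0.17, Idua at 0.56 ± 0.18, Cd63 at 0.48 ± 0.15 and Ctsd at 0.39 ± 0.13 were higher in C646. Lower in C646 were Fuca1 at -0.66 ± 0.15, Smpd1 at -0.56 ± 0.14, Man2b1 at -0.49 ± 0.12, Glb1 at -0.42 ± 0.14, Scarb2 at -0.41 ± 0.13, Manba at -0.37 ± 0.13, Neu1 at -0.36 ± 0.13, Lipa at -0.34 ± 0.12 and Lamp1 at -0.28 ± 0.10. Cln3, at -0.50 ± 0.24, did not pass the test (adjusted p = 0.161). These 3 comparisons share libraries with each other and with those against ethanol, so they are not separate evidence. With the root of the summed squared SEs of the tables as an upper bound, 6 of the 45 calls between treatments passed, among them Dnase2a for I-CBP112 against DMSO and Neu1, Manba, Hexa and Asah1 for I-CBP112 against C646.

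**Figure D3:**
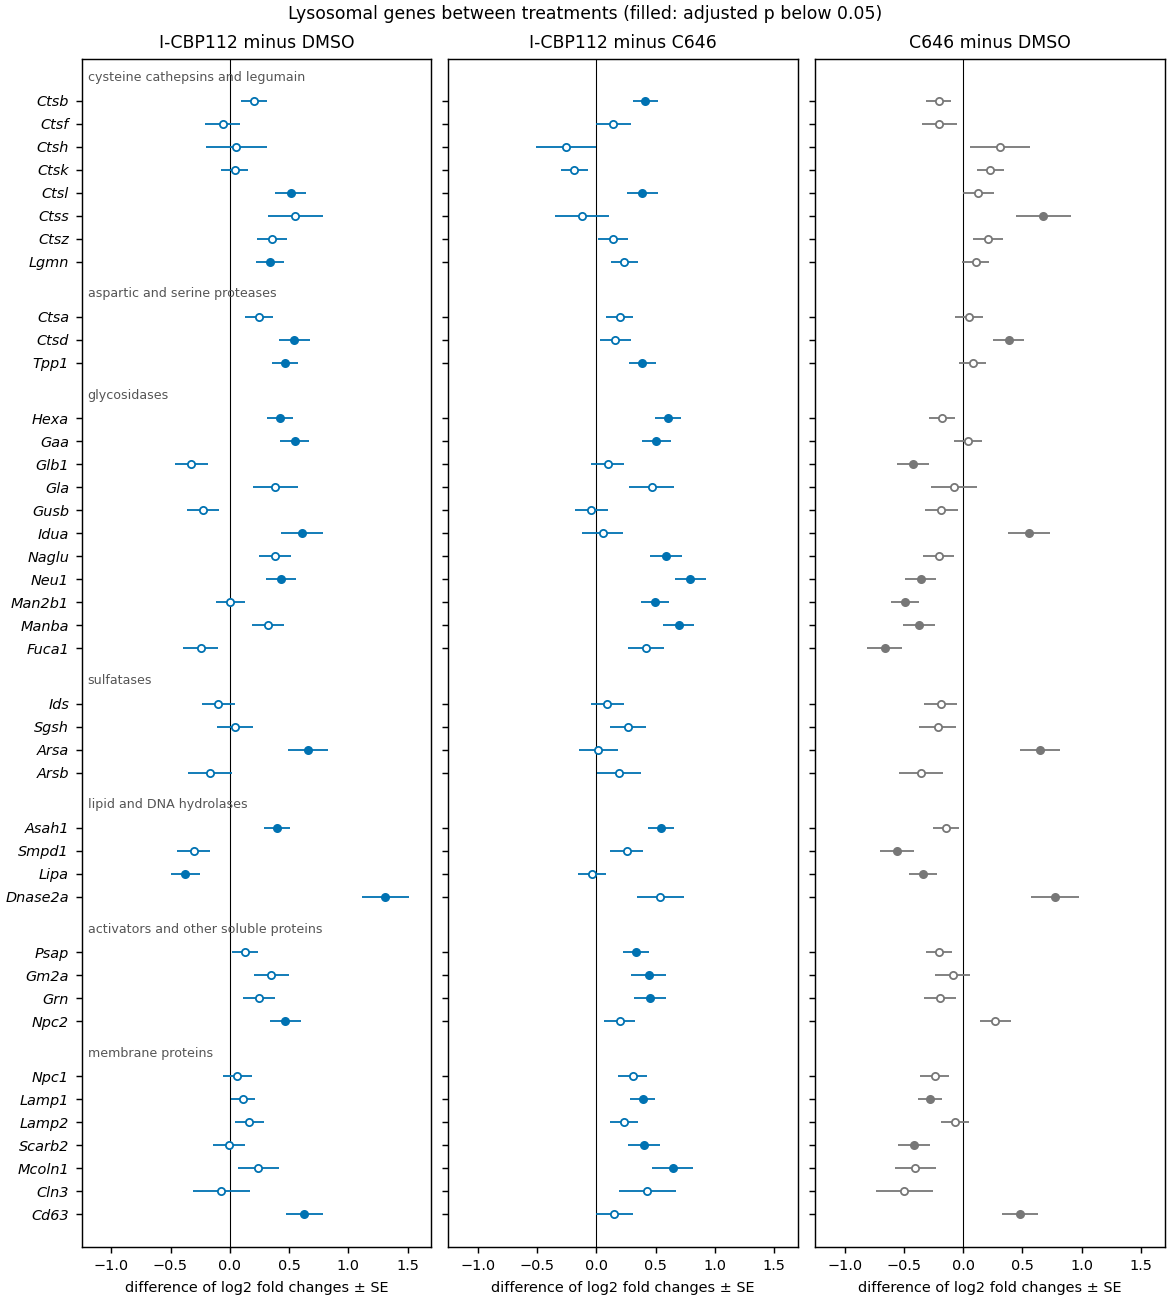
Differences in log2 fold change between treatments for the 41 genes, grouped by role: I-CBP112 minus DMSO, I-CBP112 minus C646 and C646 minus DMSO. Bars are rebuilt SEs and filled points have an adjusted p below 0.05; Dnase2a is the farthest point right in the I-CBP112 minus DMSO panel, at 1.31, and Neu1 in the I-CBP112 minus C646 panel, at 0.79.

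Other genes of the lysosome were counted in lists made up with earlier results of these data known. Their counts stand beside 4.65% higher and 5.25% lower of all tested genes with I-CBP112, and 8.07% higher and 7.9% lower with DMSO. The vacuolar ATPase, the proton pump that acidifies the lysosome, had 11 of 17 subunit genes higher and 0 lower with I-CBP112 (median 0.42), and 2 higher and 0 lower with DMSO (median 0.17). Atp6v0e2, a small membrane subunit, rose by 1.75 ± 0.21 with I-CBP112 and by 1.17 ± 0.21 with DMSO on the log2 scale (authors' deposited table). Atp6v1e1, a subunit of the cytoplasmic sector, at 0.71 ± 0.13, and the accessory protein Atp6ap2, at 0.61 ± 0.12, followed with I-CBP112 in the authors' deposited table.

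Lysosomal enzymes outside the 41 gave 5 of 28 tested genes higher and 1 lower with I-CBP112 (median 0.20), and 3 higher and 4 lower with DMSO (median 0.09). Dpp7, a dipeptidyl peptidase, rose by 0.79 ± 0.13 and Galns, a sulfatase of keratan and chondroitin sulfate, by 0.61 ± 0.16 with I-CBP112, whereas Ctsc, the dipeptidyl peptidase that activates granule serine proteases, fell by 0.67 ± 0.12 with I-CBP112 and by 1.28 ± 0.12 with DMSO (authors' deposited table, log2 scale). Hgsnat, which acetylates heparan sulfate for its breakdown, rose by 0.72 ± 0.12 with DMSO in the authors' deposited table. Among the other membrane proteins, 4 of 26 tested genes were higher and 1 lower with I-CBP112, and 3 higher and 1 lower with DMSO. Mcoln3, a relative of Mcoln1, gave the lowest called values in that list, -1.21 ± 0.37 with I-CBP112 and -2.01 ± 0.38 with DMSO, and Ostm1, the partner of the chloride transporter Clcn7, gave 0.73 ± 0.13 and 0.46 ± 0.13 (authors' deposited table).

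Enzyme tagging and sorting had 2 of 23 genes higher and 0 lower with I-CBP112, and 2 higher and 1 lower with DMSO. With DMSO these are 8.70% and 4.35% of the list, near or under the shares of all tested genes. Sort1, sortilin, a receptor that routes proteins from the Golgi to endosomes, stood at 0.96 ± 0.11 in both comparisons in the authors' deposited table. Of 18 tested genes for the TFEB family and its regulators, 4 were higher with I-CBP112 and 1 with DMSO, and 0 lower with either. Rragd, a GTPase that recruits mTORC1 and TFEB to the lysosome, rose by 1.06 ± 0.13 with I-CBP112 and by 0.56 ± 0.13 with DMSO, and Fnip2 by 0.68 ± 0.20 and Fnip1 by 0.54 ± 0.14, partners of folliculin, with I-CBP112 (authors' deposited table). The factor genes Tfeb, Tfe3 and Mitf themselves were not called with either treatment. Of 5 tested inhibitors of lysosomal proteases, 0 were called with I-CBP112 and 3 were lower with DMSO: Serpinb1a by 0.98 ± 0.36, Cstb by 0.43 ± 0.16 and Serpinb6a by 0.37 ± 0.13 below ethanol in the authors' deposited table. At an unadjusted p below 0.05, 0 vacuolar ATPase genes were lower with I-CBP112 or DMSO, 1 sorting gene was lower with I-CBP112, 1 gene of the TFEB list was lower with DMSO, and 1 inhibitor was lower with I-CBP112. With C646, 0 genes of any of these lists were called, and 0 had an unadjusted p below 0.05.

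**Figure D4:**
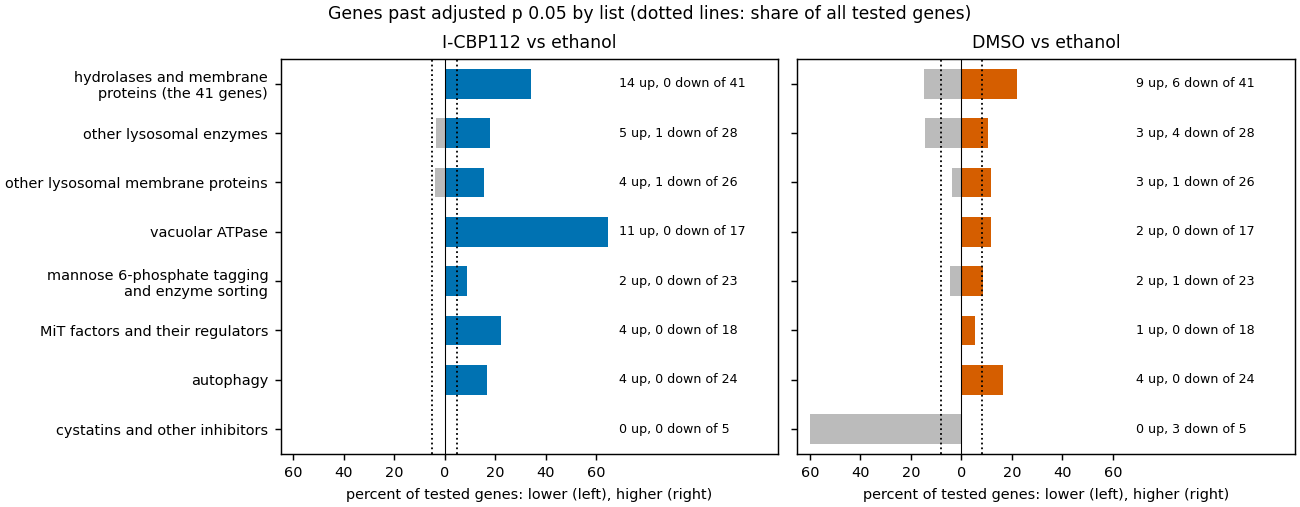
Share of tested genes called higher (right of 0) and lower (left of 0) at an adjusted p below 0.05 in each list, for I-CBP112 and DMSO against ethanol; dotted lines mark the shares among all tested genes. With I-CBP112 the vacuolar ATPase has the longest bar, 11 of 17 higher, and the 41 genes have 14 higher and 0 lower; with DMSO they have 9 higher and 6 lower.

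Lysosomal genes are abundant in macrophages, which fibroblast cultures can hold. The 15 listed macrophage genes summed to 4166 normalised counts in I-CBP112, 4677 in C646, 5133 in DMSO and 4961 in ethanol, none was at 0, and 13 of the 15 were tested. With I-CBP112, 0 of the 13 were higher and 3 were lower, Cx3cr1, Adgre1 and Csf1r, with a list median of -0.28. With DMSO 0 of the 13 were called, 1 was higher at an unadjusted p below 0.05, and the median was -0.10. Of all tested genes, 4.65% were higher and 5.25% lower with I-CBP112, and 8.07% higher and 7.9% lower with DMSO. Osteoclast genes, which were listed because Ctsk is abundant in those cells, summed to 490 normalised counts in I-CBP112, 472 in C646, 561 in DMSO and 476 in ethanol, and 0 of the 2 tested were called with any treatment, also at an unadjusted p below 0.05. Of 2 tested endothelial genes, 1 was lower with I-CBP112 and 1 with DMSO, beside 5.25% and 7.9% of all tested genes. The part of the marker genes in the lysosomal results was not tested.

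Exonic bases of 16 of the 41 genes are also annotated to another gene in GENCODE M21, in 13 of them on the opposite strand only, and the sources used here do not say whether quantification used strand. Idua overlaps Dgkq, with a mean of 1010 normalised counts, and Slc26a1, with 113, so its own level is uncertain. The same holds for Cln3, which overlaps Apobr on the opposite strand: Apobr had a mean of 291 normalised counts, against 269 for Cln3, and was lower with DMSO by 0.75 ± 0.21 on the log2 scale (authors' deposited table, adjusted p = 0.00323). Ctsd shares bases on its own strand with the protein-coding gene Gm49369, and Ctsl with the pseudogene Gm49230, and neither of these was analysed here. Dnase2a overlaps Mast1, with 11.0 normalised counts, and Arsa overlaps C230037L18Rik, with 3.82, both far below the gene itself. Glb1 shares bases with Tmppe on the same strand, with 176 normalised counts, and Ctsb with Fdft1 on the opposite strand, with 2146. Also on the opposite strand, Ctsa overlaps Pltp, with 5506, and Ctsz overlaps Nelfcd, with 782. With DMSO, Fdft1 was higher by 0.41 ± 0.13 and Nelfcd by 0.47 ± 0.16, and Pltp was lower by 0.44 ± 0.12 (authors' deposited table, log2 scale, adjusted p = 0.0125, 0.0269 and 0.002).

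Promoter sequence was examined for the E-box-like core TCACGTG, found inside the elements that TFEB and its relatives bind. RefSeq windows of 300 bases, from 250 before to 50 after the start site, were at hand for 37 of the 41 genes as 41 windows in build GRCm38.p6. TCACGTG on either strand (read as CACGTGA on the other) occurred in 12 of 41 windows, 29.3%, against 3.77% of 32851 windows of all genes. The shorter palindrome CACGTG, which every TCACGTG contains, occurred in 34.1% of the windows of these genes and in 7.15% of all windows. The 150 bases before the start site are printed, 5′ to 3′ on the strand of the gene, for 6 of the genes that hold the core and were called in different comparisons. Lamp1 (chr8:13159011-13159160, plus), Naglu (chr11:101069944-101070093, plus) and Gaa (chr11:119267813-119267962, plus) were higher with I-CBP112. With DMSO, Glb1 (chr9:114400928-114401077, plus) and also Lamp1 were higher, and Ctsd (chr7:142387828-142387977, minus) and Arsa (chr15:89477425-89477574, minus) were lower. Capitals mark TCACGTG or CACGTGA.
Lamp1: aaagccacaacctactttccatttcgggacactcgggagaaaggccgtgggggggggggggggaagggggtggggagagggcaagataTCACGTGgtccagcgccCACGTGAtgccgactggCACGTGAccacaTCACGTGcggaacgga
Naglu: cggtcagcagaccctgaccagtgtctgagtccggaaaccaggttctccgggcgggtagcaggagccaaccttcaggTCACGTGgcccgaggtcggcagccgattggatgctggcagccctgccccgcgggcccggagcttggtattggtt
Gaa: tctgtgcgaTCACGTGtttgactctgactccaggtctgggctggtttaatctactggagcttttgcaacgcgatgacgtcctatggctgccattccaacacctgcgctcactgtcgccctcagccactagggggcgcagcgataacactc
Glb1: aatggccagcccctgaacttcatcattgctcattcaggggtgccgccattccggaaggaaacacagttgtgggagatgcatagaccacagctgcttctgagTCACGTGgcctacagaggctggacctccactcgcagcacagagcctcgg
Ctsd: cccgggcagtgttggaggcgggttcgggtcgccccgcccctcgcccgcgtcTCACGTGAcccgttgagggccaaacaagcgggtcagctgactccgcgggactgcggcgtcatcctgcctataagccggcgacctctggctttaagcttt
Arsa: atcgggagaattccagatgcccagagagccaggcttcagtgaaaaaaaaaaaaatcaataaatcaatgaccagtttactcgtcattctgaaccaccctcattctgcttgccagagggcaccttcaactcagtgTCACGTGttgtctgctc

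Lamp1 held 4 copies of the core, at positions -61, -45, -28 and -15 from its start site,, and the other 5 stretches held 1 each. In Ctsd the core reads the same on both strands, so that the 2 forms overlap. With I-CBP112, the core lay in 3 of 12 higher genes that had a window, 25.0%, and in 9 of 25 genes that were not called, 36.0%. With DMSO it lay in 2 of 9 higher genes, 2 of 6 lower genes and 8 of 22 that were not called. These matches describe letters in a window, and binding was not measured.

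**Figure D5:**
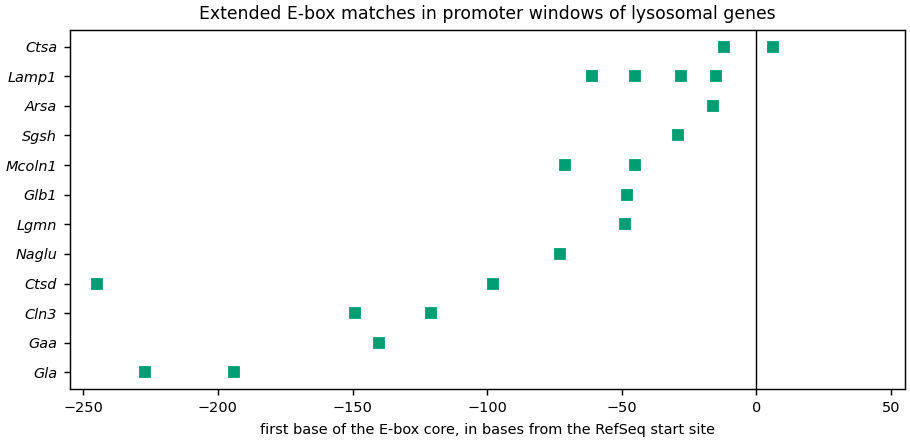
Position of each CACGTG core within a TCACGTG or CACGTGA match, in bases from the RefSeq start site, for the 12 genes with a match. Lamp1 has 4 matches, at positions from -61 to -15, and the matches of the other genes are spread over the window.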

How the data were processed

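RNA was sequenced from 8 libraries, 2 per treatment, grouped by the treatment in the labels. Per the submitters' processing notes, the authors quantified reads with kallisto 0.43.1 on GRCm38.p5 and used DESeq2 (version: not given in the sources used here). Each of the 3 deposited tables covers 50600 genes, without values for single libraries. Per the file headers, the deposited signal is baseMean, the mean normalised count over all libraries. The deposited log2 fold change comes with its standard error. The deposited Wald statistic, a score, is the fold change over that error. The deposited p-value and adjusted p are the authors' own. No table names its reference; it was taken to be ethanol, the 1 treatment that has no table of its own.

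Group means, differences between treatments and their standard errors were computed here (Python 3.11.15, pandas 2.3.3, scipy 1.17.1), with 1 dispersion per gene. That formula gave the deposited standard errors of all 41 genes, and of 98.9% of tested genes in the DMSO table, to within 1%. The code was also run on simulated data. The dispersion was fitted to those same errors, and the simulation used the same formula, so neither checks the errors between treatments. DESeq2 was not run here, and library depth is known only through the summed normalised counts. The members and the lists were chosen with earlier results of these data known. Values are given for each of the 41 genes past the test in any comparison or among the 3 highest or 3 lowest, and of other lists for at most the 3 called genes with the largest change per comparison. Positions are from GENCODE M21. Alternatives were centring on the median gene, scaling to equal totals, a minimum mean count of 50, adjustment over all genes with a p, an upper-bound standard error and a t distribution.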

Additional observations from a re-analysis of the deposited data

How the results depend on the processing

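No paired analysis was possible because the tables hold no values of single libraries; leaving out each library in turn and a fit with a replicate block were not run for the same reason. The alternatives left fold changes as they were or shifted them by at most 0.035 on the log2 scale. That is too little to reverse any of the 74 calls, and none reversed. Requiring a mean count of 50 kept all 74. All 41 genes lie above that minimum, the lowest at 269, so it altered only the adjustment. Equal totals kept 27 of the 29 against ethanol, losing Neu1 and Lamp1 with DMSO. Centring on the median of all tested genes kept 65, with 0 lower genes in place of 1 for I-CBP112 against DMSO and 5 in place of 9 for C646 against DMSO. Adjusting over all genes with a p kept 51: 9 higher genes for I-CBP112 and 5 for DMSO against ethanol, 0 lower for I-CBP112 against DMSO and 5 lower for C646 against DMSO. The upper-bound standard error left, between treatments, 1 higher and 0 lower for I-CBP112 against DMSO, 0 higher and 1 lower for C646 against DMSO, and 4 higher for I-CBP112 against C646. A t distribution (4 degrees of freedom) instead of the normal one left 0 calls in every comparison of the 41 genes. Over all tested genes it left 1 against ethanol with DMSO and 0 with I-CBP112, so the loss was not particular to the 41 genes. With 2 libraries per treatment the median standard error of 0.13 on the log2 scale limits what can be called.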

Other observations

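Autophagy genes, whose products deliver cytoplasm to the lysosome, were counted in a list of 24 tested genes. With I-CBP112, 4 were higher than in ethanol and 0 lower, with a median log2 fold change of 0.16, and with DMSO 4 were higher and 0 lower, with a median of 0.20. The share called higher among all tested genes was 4.65% with I-CBP112 and 8.07% with DMSO. Optn, an autophagy receptor, rose by 0.63 ± 0.15 with I-CBP112 (adjusted p = 0.00111), and Stx17, the syntaxin that fuses autophagosomes with lysosomes, by 0.58 ± 0.14 (adjusted p = 0.000485), as the authors' deposited table gives them. Gabarapl1, a ubiquitin-like protein that is joined to the autophagosome membrane, rose by 0.56 ± 0.11 with I-CBP112 (adjusted p = 3.27e-05, authors' deposited table). With DMSO, Atg12, which is conjugated to Atg5, rose by 0.70 ± 0.14, Stx17 by 0.68 ± 0.14 and Becn1, a subunit of the lipid kinase complex that starts autophagosome formation, by 0.46 ± 0.14 (authors' deposited table). Between treatments, Atg12 was lower in I-CBP112 than in DMSO by 0.43 ± 0.14 (adjusted p = 0.0368), the 1 gene of the list called in that comparison. With C646, 0 of the 24 genes were called and 0 had an unadjusted p below 0.05.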
